A study of Mus musculus with 4 samples.

Results

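Binding of CTCF was examined at 7 genes of neurotrophin signalling in cultured mouse cortical neurons: the ligand genes Bdnf, Ntf3 and Ntf5 and the receptor genes Ntrk2, Ntrk3, Ngfr and Sort1. They were chosen by name, among 21774 protein-coding genes of the RefSeq table for GRCm38.p6. A CTCF peak was assigned to a gene by its summit: within 1 kb of either end, inside the gene, or outside it within 100 kb. Wild-type neurons from embryonic day 16 Swiss-Webster cortex were grown for 13 days without treatment and fixed in 1% formaldehyde for 10 minutes. Chromatin immunoprecipitation and sequencing was done on 2 biological replicates of about 15M cells each, with 2 input libraries. The data are 1 list of 33820 peaks that matched between the replicates, with an irreproducible discovery rate (IDR, the expected share of peaks that do not repeat) of at most 0.05. Of these, 33815 lay on assembled chromosomes. With 1 condition and 1 list, no groups could be compared and no test was run. The counts below are described beside the same counts over all protein-coding genes or genes of like length. Binding data hold no expression values, so the cell type label was not checked against marker genes.

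Neurotrophins are secreted growth factors that keep neurons alive and shape their synapses. BDNF and the product of Ntf5 act mainly through the receptor tyrosine kinase TrkB, encoded by Ntrk2, and the product of Ntf3 mainly through TrkC, encoded by Ntrk3. Ngfr encodes p75, a receptor shared by all neurotrophins, and Sort1 encodes sortilin, a sorting receptor that binds neurotrophin precursors and forms a receptor complex with p75. Bdnf is known for its many promoters, each in front of its own 5′ exon that is joined to a shared coding exon, and several of them respond to neuronal activity. CTCF is a zinc finger protein that anchors chromatin loops together with cohesin and often sits near promoters and insulators.

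The sequences below are from Bdnf, Ntrk2 and Ngfr, and only 2 of them hold the summit of a peak. They are the listed promoters of the 7 genes that a CTCF peak covered in whole or in part. Each is a RefSeq promoter window of 300 bases on GRCm38.p6, from 250 bases before the listed start of transcription to 50 after it, and is given 5′ to 3′ on the strand of the gene. Of the 7 genes, 4 matched the promoter table with 11 windows in all: 7 at Bdnf, 2 at Ntf3 and 1 each at Ntrk2 and Ngfr. Ntf5, Ntrk3 and Sort1 had no entry. The Bdnf promoters are numbered here by their order along the gene, which is not the exon numbering of the field. In Bdnf promoters 2 and 5 the capitals mark the bases inside the peak, in Bdnf promoter 3 and the Ntrk2 promoter the 21 bases centred on the joint summit, and in the Ngfr promoter, which its peak covered whole, the 7 bases that match AGGNGGC.
Bdnf promoter 2 (chr2:109676782-109677081, plus strand): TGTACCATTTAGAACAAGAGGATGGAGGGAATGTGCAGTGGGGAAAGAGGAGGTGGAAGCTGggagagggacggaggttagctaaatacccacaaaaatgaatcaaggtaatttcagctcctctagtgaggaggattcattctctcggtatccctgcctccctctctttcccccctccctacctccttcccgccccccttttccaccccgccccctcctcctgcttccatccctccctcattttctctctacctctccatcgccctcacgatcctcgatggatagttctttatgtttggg
Bdnf promoter 3 (chr2:109692186-109692485, plus strand): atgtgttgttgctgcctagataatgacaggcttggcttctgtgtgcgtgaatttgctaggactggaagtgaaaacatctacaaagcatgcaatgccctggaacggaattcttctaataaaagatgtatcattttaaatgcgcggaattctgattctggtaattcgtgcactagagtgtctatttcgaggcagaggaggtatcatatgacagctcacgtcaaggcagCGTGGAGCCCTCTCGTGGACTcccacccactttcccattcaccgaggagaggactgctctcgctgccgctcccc
Bdnf promoter 5 (chr2:109694159-109694458, plus strand): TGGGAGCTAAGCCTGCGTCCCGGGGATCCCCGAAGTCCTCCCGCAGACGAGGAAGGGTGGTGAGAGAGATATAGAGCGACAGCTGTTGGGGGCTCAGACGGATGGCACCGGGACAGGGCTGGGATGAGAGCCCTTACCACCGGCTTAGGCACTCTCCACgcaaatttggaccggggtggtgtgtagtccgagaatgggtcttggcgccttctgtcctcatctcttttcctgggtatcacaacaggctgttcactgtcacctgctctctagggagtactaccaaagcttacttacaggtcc
Ntrk2 promoter (chr13:58806319-58806618, plus strand): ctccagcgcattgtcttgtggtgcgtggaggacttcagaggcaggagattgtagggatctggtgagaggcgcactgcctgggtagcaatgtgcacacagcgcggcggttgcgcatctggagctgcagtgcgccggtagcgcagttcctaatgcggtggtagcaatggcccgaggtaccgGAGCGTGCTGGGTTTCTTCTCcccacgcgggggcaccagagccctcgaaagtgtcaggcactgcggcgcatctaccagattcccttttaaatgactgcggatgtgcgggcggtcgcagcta
Ngfr promoter (chr11:95587649-95587948, minus strand): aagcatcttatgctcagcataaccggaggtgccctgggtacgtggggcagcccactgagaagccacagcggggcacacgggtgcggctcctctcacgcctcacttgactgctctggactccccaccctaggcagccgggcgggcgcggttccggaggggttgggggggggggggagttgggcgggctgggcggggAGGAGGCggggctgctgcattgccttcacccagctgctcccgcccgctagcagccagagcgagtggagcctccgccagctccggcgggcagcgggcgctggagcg

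Over the 7 genes there were 61 peaks, of which 1 lay at a gene end, 17 inside genes and 43 in the flanks. An end peak was present at 1 of 7 genes, Ntrk2, against 29.2% of all protein-coding genes. This count rests on the summit and the window: counting any base of the peak, 5 of 7 had one, and with windows of 5 kb 6 of 7. The share of all protein-coding genes was not counted under these wider rules, so 29.2% is no measure for them. A peak inside, more than 1 kb from both ends, was present at 5 of 7: Bdnf, Ntf3, Ntrk2, Ntrk3 and Ngfr. Over all protein-coding genes this share was 35.5%. Ntf5 and Sort1 had neither, so 5 of 7 genes held a peak inside or at an end, against 51.6% of all. Flank peaks were present at 6 of 7 genes, all but Bdnf, against 85.8%. Gene length moves with these shares: 8.6% of genes under 10 kb and 91.4% of genes over 300 kb had a peak inside, and the 7 genes span from 3485 bp (Ntf5) to 401049 bp (Ntrk3). The joint strength of a peak is the deposited sum of the −log10 p values from both replicate columns, and higher values stand for clearer peaks. It ranged from 44.2 to 1087 over the 18 peaks inside the genes or at their ends, with a median of 114, against 166 for the whole list. Only 5 of the 18 lay above that list median: 2 at Ntrk2 and 1 each at Bdnf, Ntrk3 and Ngfr.

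**Figure D1:**
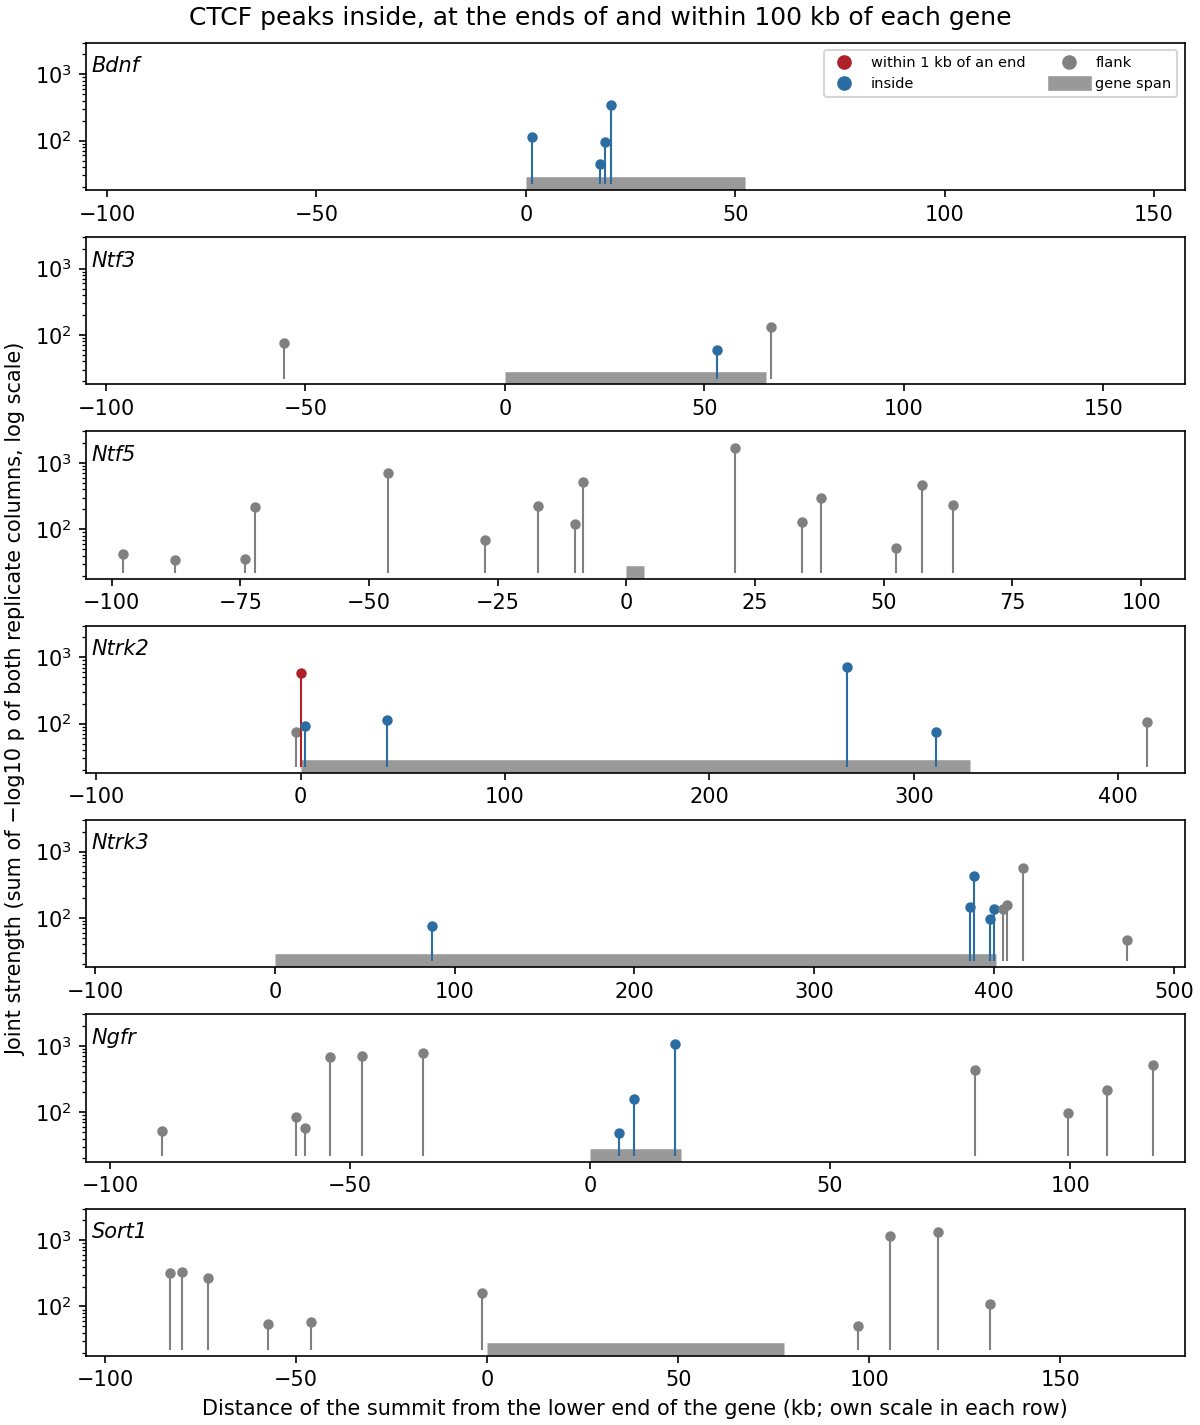
CTCF peaks at the 7 genes, with the distance of each summit from the lower-coordinate end in kb on the horizontal axis (own scale in each row) and joint strength, the sum of −log10 p of both replicate columns, on a log vertical axis. Red marks the peak at the Ntrk2 end, blue the 17 peaks inside genes, grey the 43 flank peaks, and the grey band the gene; Bdnf has 4 peaks inside and none in its flanks, while Ntf5 has 15 and Sort1 10, all outside the gene.

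Bdnf (gene 12064, chromosome 2, 109674700 to 109727043, 52344 bp, plus strand) carried 4 CTCF peaks, all inside the gene, and none within 1 kb of either end or anywhere in the 100 kb on either side. Of genes of 30 to 100 kb, 4.11% had 4 or more peaks inside. Counting peaks inside or at an end, 6.77% had 4 or more, and the median of this length class was 1. The nearest summits outside the gene lay 135 kb below and 137 kb above it, with strengths of 44.3 and 40.8. A peak-free stretch at least this long on both sides was present at 9.82% of protein-coding genes. Among genes of 30 to 100 kb, 6 of 5063 (0.119%) had at least 4 peaks inside and none in the flanks, a combination chosen after the Bdnf values were seen. Over all protein-coding genes 14.2% had none in the flanks. No protein-coding gene reached into the 100 kb on either side. The nearest were Kif18a, a kinesin motor gene, 333 kb below, and Lin7c, a synaptic scaffold gene, 164 kb above.

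The 4 Bdnf peaks fell into a single peak near the gene's beginning and a group of 3 between 33.9% and 38.8% of the way along. Peak 1 (109675864 to 109676843) had a strength of 113, with 17.4 as its first replicate value and 95.6 as its second. Its summit lay 1484 bp after the first listed start and 848 bp before the second, so between promoters 1 and 2. The peak's upper edge reached 62 bases into the window of promoter 2, the part in capitals above, and none of the window of promoter 1.

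Peaks 2, 3 and 4 had their summits 17722, 18994 and 20333 bp from the lower end, over a span of 2611 bp that holds listed starts 3, 4 and 5. Start 3 lay 14 bp above the summit of peak 2. Peak 2 (109691357 to 109692694) was the weakest of the 4, with a strength of 44.2 from 21.6 and 22.6, above 5.8% of the list. It covered promoter 3 whole. The summits of the replicate peaks stood 522 bp apart, against a list median of 29 bp, and only 6.46% of the list had a distance as large. The second column's summit lay 46 bp before start 3, inside the promoter window, and the first column's 568 bp before it, outside the window. The joint summit lay beyond both, as in 7.17% of the list, so its place within this peak is uncertain.

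Promoter 3 also holds the 8 letters TCACGTCA, a form of the cyclic AMP response element that CREB proteins bind. The match starts at base 213 of the printed window, ahead of the 21 capitals around the joint summit, which start at base 227. These letters, on either strand, were present in 0.441% of 32851 listed promoters and in 1 of the 11 of these genes. They were searched after promoter 3 had been seen, and a match in the letters does not show that a factor binds there.

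Peak 3 (109693263 to 109694317) had a strength of 96.8, from 42 in the first column and 54.8 in the second. Its summit lay 667 bp after start 4 and 715 bp before start 5. It covered the first 159 bases of promoter 5 and none of promoter 4, which fell in the gap between peaks 2 and 3. Peak 4 (109694631 to 109695418) was the strongest at Bdnf with 343, from 72.3 and 271, above 78.4% of the list, and its −log10 IDR stood at the cap of 5. The summit lay 624 bp after start 5, and the replicate summits were 15 bp apart. Peak 4 thus overlapped no listed promoter, and the strongest and most sharply placed Bdnf peak lay just downstream of the group of starts 3 to 5. Starts 6 and 7, at 34683 and 48221 bp from the lower end, had no summit nearer than 14350 bp.

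**Figure D2:**
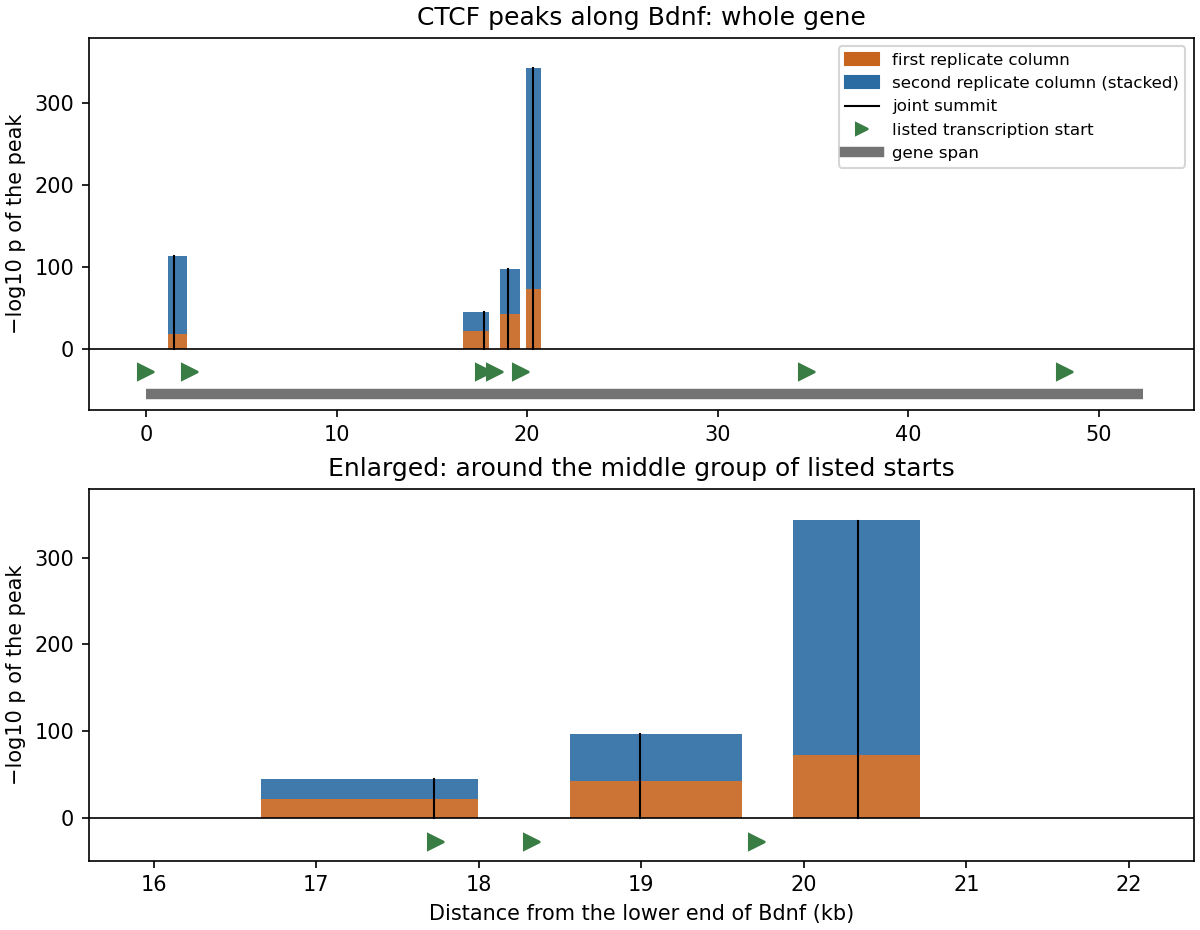
The 4 CTCF peaks of Bdnf along the whole gene (top) and enlarged around starts 3 to 5 (bottom), with distance from the lower end in kb on the horizontal axis and −log10 p on the vertical axis. Each bar spans the joint peak and stacks the first replicate column (orange) and the second (blue), black lines mark joint summits, green triangles are centred on the 7 listed starts and the grey band is the gene; peak 4, at 20333 bp, is the highest at 343 and the upper part of the gene is empty.

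Groups of 3 summits this close were few inside genes, although the span was taken from Bdnf itself and so gives no independent measure. Besides Bdnf, only Fgf13, a growth factor homologue gene on chromosome X, had 3 summits inside within 2611 bp, so 2 of 21774 protein-coding genes (0.00919%). Fgf13 spans 523434 bp and held 7 peaks. Genes were also ranked by likeness to Bdnf, as those with the same number of peaks inside or at the ends and the nearest length. Among 514 genes with 4 such peaks, the 5 nearest in length were Xrcc6, Mroh5, Arhgap8, Coro7 and Hdac7, from 51842 to 52837 bp. Coro7 and Hdac7 also had all 4 inside and none at an end. All 5 had peaks in their flanks, from 6 at Hdac7 to 12 at Arhgap8, where Bdnf had none.

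The other ligand genes had few peaks inside or none. Ntf3 (gene 18205, chromosome 6, 126101412 to 126166772, 65361 bp, minus strand) had 1 peak inside (126153872 to 126154774), with a strength of 58.8 from 11 and 47.8. Its summit lay 12315 bp below the upper end and 10503 bp downstream of the nearer listed start. At least as many, inside or at an end, were present at 70.6% of genes of 30 to 100 kb. A second peak (126167639 to 126168474, strength 133) had its summit 1233 bp above the upper end, just outside the 1 kb window, and 1261 bp upstream of the outer of the 2 listed starts. Its value was 8.64 in the first column and 124 in the second, so it rested mostly on the second. The only other peak within 100 kb (strength 74.6) lay 55318 bp below the gene. The nearest protein-coding genes were Ano2, a calcium-activated chloride channel gene 61.3 kb below, and the potassium channel gene Kcna5, 366 kb above.

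Ntf5 (gene 78405, chromosome 7, 45413695 to 45417179, 3485 bp) had no peak inside or at an end, as did 72.7% of genes under 10 kb. Its flanks held 15 peaks, against a median of 4 over all protein-coding genes, of which 2.69% had as many or more.
This short gene lies in a dense stretch with 14 other protein-coding genes within 100 kb, Kcna7 2.31 kb below and the gonadotropin subunit gene Lhb 0.429 kb above. Of the 15 peaks, 13 lay inside another gene or within 1 kb of its ends, a share not counted over the whole list. The strongest (45433910 to 45435543, strength 1665, from 853 and 812) was above 99.7% of the list, and its summit lay inside or within 1 kb of both Ruvbl2, a chromatin ATPase gene, and the glycogen synthase gene Gys1. The nearest to Ntf5 had its summit 8459 bp below, beside the potassium channel gene Kcna7 (strength 517). The next in strength was 694, at the synaptic scaffold genes Ppfia3 and Lin7b. Others lay at the ion channel gene Trpm4, at Hrc, at the splicing factor gene Snrnp70, at the apoptosis gene Bax and at Dhdh. The weakest, inside or within 1 kb of Trpm4, had a strength of 34.2. The flank counts of Ntf5 thus include many peaks that lie in or beside its neighbours, and whether any bears on Ntf5 was not measured.

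Of the receptor genes, Ntrk2 was the only one with a peak at an end. Ntrk2 (gene 18212, chromosome 13, 58806472 to 59133970, 327499 bp, plus strand) held 5 peaks inside or at its ends. Among genes over 300 kb the median was 4, and 44% had 5 or more. The end peak (58805873 to 58807217) covered the listed promoter whole and had a strength of 585, above 92.8% of the list. The replicate columns gave 256 and 329. Its summit lay 36 bp inside the lower end and 61 bp before the listed start, and the replicate summits were 13 bp apart. Of genes over 300 kb, 47.8% had an end peak. Of the listed promoters of all genes, 6.08% held a summit.

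Smaller peaks stood on either side of this promoter. A flank peak with a strength of 74.8 had its summit 2396 bp below the gene, and one of 90.5 lay 2146 bp inside it. Farther in, the gene had a peak of 114 at 42296 bp. Its strongest peak (59073133 to 59074470, strength 718, from 267 and 451) lay 267301 bp inside, or 81.6% of the way along. This peak's summit was inside or within 1 kb of the non-coding gene Gm53063. The last inside peak, at 310999 bp, had a strength of 74.3. Between the peaks at 42296 and 267301 bp none was listed. The flanks held 2 peaks, the second 86337 bp above the gene with a strength of 107, and no protein-coding gene. The nearest ones were the nucleoside transporter gene Slc28a3, 196 kb below, and Agtpbp1, 316 kb above.

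Ntrk3 (gene 18213, chromosome 7, 78179986 to 78581034, 401049 bp) held 5 peaks inside as well, and 4 of them gathered within 15000 bp of its upper end. Their summits lay 14151, 11921, 3027 and 1014 bp from that end, with strengths of 145, 422, 95.9 and 135. The innermost pair lay inside or within 1 kb of the non-coding gene Gm39038. The strongest (78568446 to 78569673) had 61 in the first column and 361 in the second. The last of them, at 1014 bp, missed the 1 kb window narrowly, and by the second column's own summit, 994 bp from the end, it fell within it. The peak with a strength of 95.9 was the only one of the 18 with a higher value in the first column, 58.2 against 37.7, and its replicate summits lay 654 bp apart. The fifth inside peak lay at 87677 bp from the lower end, with a strength of 74.2.

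The row of peaks went on beyond the upper end of Ntrk3. Summits lay 3718, 5984 and 15069 bp above it, with strengths of 135, 154 and 569, and a weaker one (45.8) lay 72860 bp above. All 4 lay inside or within 1 kb of E430016F16Rik, a non-coding gene on that side of Ntrk3. On the other side the nearest summit was 738 kb below the gene. The nearest protein-coding genes were Agbl1, 1055 kb below, and the mitochondrial ribosomal protein gene Mrpl46, 194 kb above. Ntrk2 and Ntrk3 thus had the same count, 5. At Ntrk2 the strongest peaks stood at the promoter, by the lower end, and 60197 bp from the upper end. At Ntrk3 they stood in the stretch around the upper end. With no listed promoter for Ntrk3, whether that stretch is its promoter side was not determined. The 2 genes were therefore not compared by distance to the promoter. The strongest peaks inside Ntrk2 and Ntrk3, 718 and 422, were above 95.3% and 85.5% of the list.

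Ngfr (gene 18053, chromosome 11, 95568818 to 95587698, 18881 bp, minus strand) held the strongest peak inside any of the 7 genes. It (95585110 to 95588103) had a strength of 1087, above 98.3% of the list, with 529 in the first column and 558 in the second. It was also the widest, 2994 bp, wider than 98.8% of the list. The peak covered the listed promoter whole, but its joint summit lay 1278 bp downstream of the listed start, so it counted as inside. The replicate summits were 957 bp apart: the second column's lay 1273 bp and the first column's 2230 bp downstream of the start. Both columns thus placed the summit inside the gene rather than in the printed promoter window, while they differed on where.

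The other peaks inside Ngfr were weaker. One (95577437 to 95578652) had a strength of 160 from 79.8 and 80.2, and another (95574190 to 95575273) had 49 from 17.1 and 32. In all, 3 peaks lay inside or at an end, and 5.01% of genes of 10 to 30 kb had as many or more. The flanks held 10 peaks, where 15.5% of protein-coding genes had as many or more. The strongest of them had 780 and its summit 34870 bp below the gene, in no other gene. Below it followed peaks of 714, in no other gene, and of 689, at the end of Nxph3, a neurexophilin gene 54.3 kb from Ngfr. Another lay inside or within 1 kb of Spop, a ubiquitin ligase adaptor gene. Others lay at the prohibitin gene Phb, whose lower end is 79.3 kb above Ngfr. The nearest summit above the gene was 61354 bp away, with a strength of 426.

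Sort1 (gene 20661, chromosome 3, 108283974 to 108361519, 77546 bp) was the only gene of over 10 kb among the 7 with no peak inside or at an end, as were 29.4% of genes of 30 to 100 kb. The nearest summit, with a strength of 159 from 20 and 139, lay 1460 bp below its lower end (108281521 to 108282978). By any base of the peak, this one came within 1 kb of the end. Its replicate summits lay 705 bp apart. The flanks held 10 peaks in all, and 15.5% of protein-coding genes had as many or more. Of the 10, 7 lay inside or within 1 kb of other genes, a share not counted over the whole list. The strongest (108401082 to 108403387) had 1348, above 99.2% of the list. Its summit lay 40425 bp above Sort1, inside or within 1 kb of Celsr2, a cadherin gene. Another of 1171, in no gene, lay 27923 bp above. Below the gene, peaks of 323, 337 and 268 stood at Cyb561d1, Atxn7l2 and Sypl2. The remaining named neighbours were Mybphl, 3.39 kb above, and the proteasome gene Psma5, 4.02 kb below. A peak of 50.2 lay inside Mybphl or within 1 kb of its ends.

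**Figure D3:**
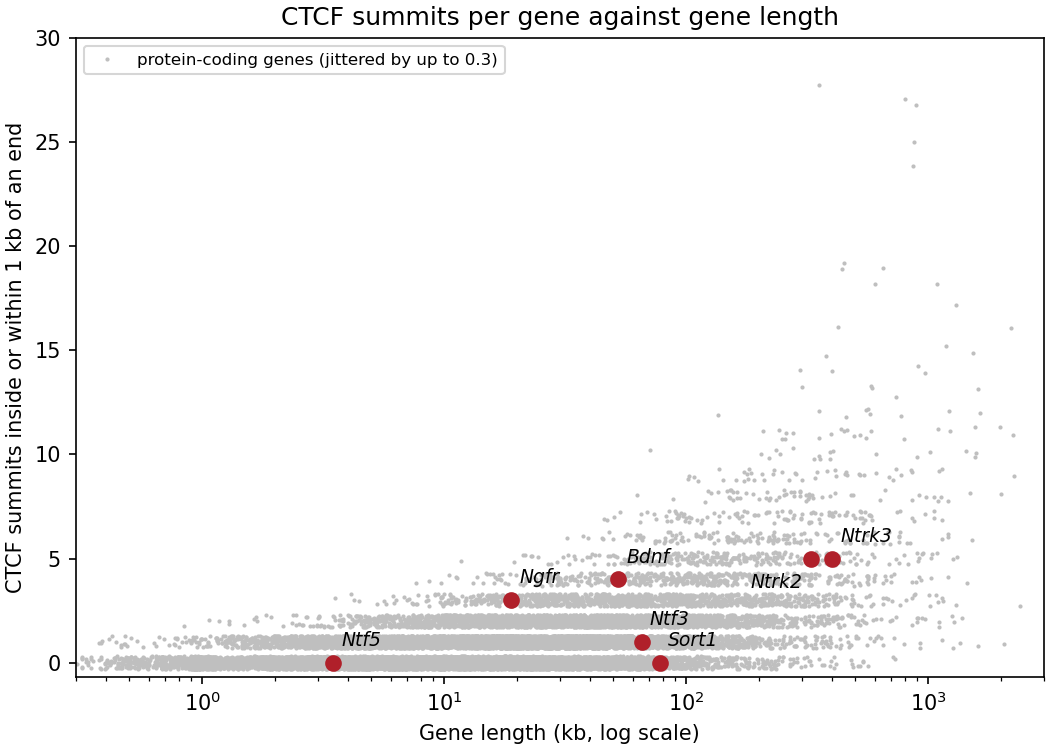
CTCF summits inside each protein-coding gene or within 1 kb of its ends (vertical axis) against gene length in kb on a log horizontal axis. Grey points are protein-coding genes, jittered vertically by up to 0.3, and red points the 7 genes; Bdnf (4) and Ngfr (3) stand in the upper part of the counts at their lengths, Ntrk2 and Ntrk3 (5 each) in the middle, and Ntf5 and Sort1 at 0.

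The replicate columns gave unequal values at most of these peaks. The second column was higher at 17 of the 18 peaks inside or at the ends, with a median log2 ratio of second to first of 0.96, against 1.91 over the list. By that list median the second column was higher at most peaks of the whole list too, though the exact share was not counted. The list gives no library depths and its columns are tied to no labelled replicate, so a ratio between columns was not read as a difference between cultures. At Bdnf the log2 ratio was 2.46 at peak 1, 0.06 at peak 2, 0.38 at peak 3 and 1.91 at peak 4. Peaks 2 and 3 thus stood closer to equal values than peaks 1 and 4. At the Ntrk2 promoter the ratio was 0.36 and at the widest Ngfr peak 0.08. Ranked within each column, 10 of the 18 peaks exceeded the median of the first, 30.9, but 5 that of the second, 129. Peak 3 of Bdnf stood above 61.7% of the list in the first column and above 23.3% in the second, while peak 4 stood above 78.4% and 78.5%.

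**Figure D4:**
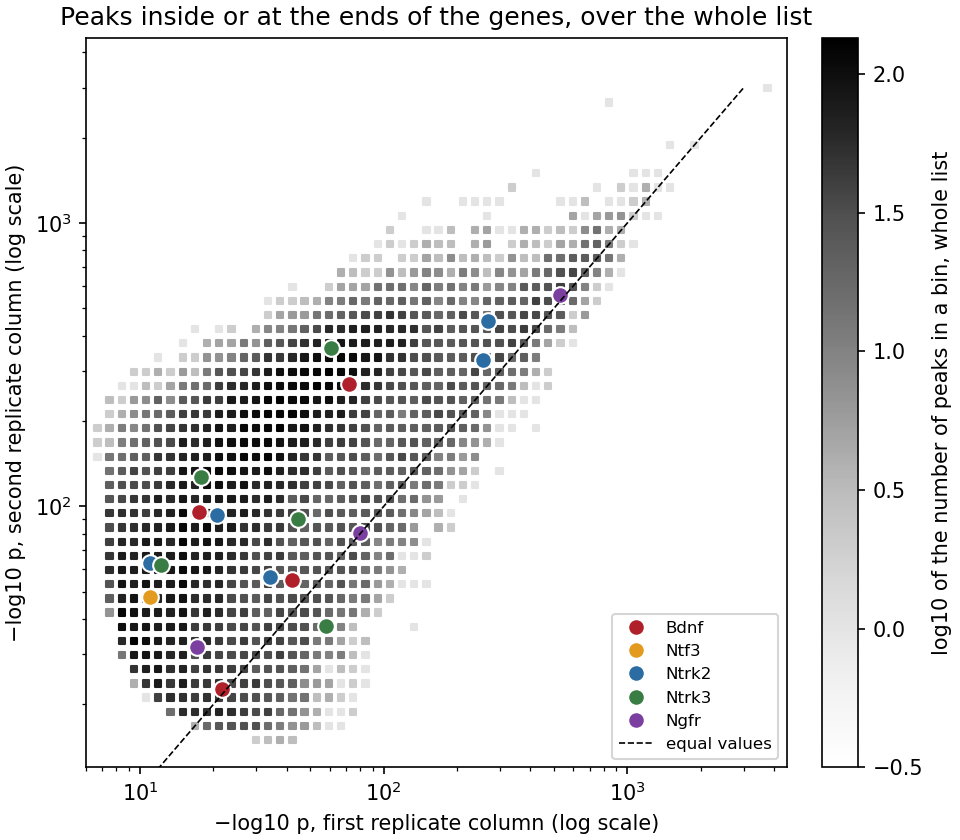
The 18 peaks inside or at the ends of the genes (coloured by gene) over the whole list (grey, darker for more peaks in a bin), with −log10 p of the first column on the horizontal axis and of the second on the vertical axis, both log scales. The dashed line marks equal values; 17 of 18 peaks lie above it, and the widest Ngfr peak (529 and 558) is highest in both columns.

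The promoter windows were searched for AGGNGGC, a core of the CTCF motif, on both strands. It was present in 4 of the 11 windows: Bdnf promoters 1 and 2, the Ngfr promoter, and the Ntf3 promoter at 126164911 to 126165210. Over all listed promoters 29.4% held it, and 56.9% of those that held a summit. Neither of the 2 windows that held a summit here, Bdnf promoter 3 and the Ntrk2 promoter, had an exact match. Both hold near matches: the promoter 3 capitals read AGAGGGC on the other strand, and CGGGGGC stands shortly after the Ntrk2 capitals. These were seen by reading the printed windows, and near matches were not counted over the listed promoters. The lack of an exact match thus does not show the lack of a CTCF site. The exact Bdnf matches lay outside the peaks. In promoter 2 the match was at base 210, where the peak covered bases 1 to 62, and no peak covered promoter 1. A longer pattern, with CC and 3 free bases ahead of the same core, was in none of the 11 and in 3.43% of all listed promoters. This pattern contains the core, so it cannot match where the core does not and is no separate check. A peak covered 5 of the 11 windows at least in part, where 20.2% of all were covered.

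Other genes of the pathway were counted in 4 lists with 55 genes, all found in the table. Of these, 24 had a peak at an end, 43.6% against 29.2% of protein-coding genes, and 39 had one inside, 70.9% against 35.5%. The median was 2 peaks inside or at an end, against 1 over all protein-coding genes. Many of these genes are long, and the counts were not adjusted for length. Of 11 genes that process or sort neurotrophins, 6 (54.5%) had an end peak and 10 (90.9%) one inside. The strongest end peaks were at Sorcs2 (1080), a relative of Sort1, at the carboxypeptidase gene Cpe (988) and at Sorl1 (375), another sorting receptor gene. Sorcs2 also held the most peaks of the 55 genes, 9. The sortilin relatives Sorcs1 and Sorcs3, of 535835 and 599481 bp, had 5 and 4 peaks inside, where Sort1, of 77546 bp, had none. Inside or at an end, the median was 4 for genes over 300 kb and 1 for genes of 30 to 100 kb.

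Of 19 adaptors and effectors that act below the Trk receptors, 9 had an end peak and 14 one inside. These shares were 47.4% and 73.7%, against 29.2% and 35.5% of all protein-coding genes. The strongest end peaks were at Rapgef1 (1234), an activator of the small GTPase Rap, at the docking protein gene Gab1 (542) and at Kidins220 (395), a membrane scaffold that binds Trk receptors. Shc1, Sos2 and Mapk7 had neither. Of 8 partners of p75, 4 (50%) had an end peak, led by Traf6 (956), the Nogo receptor gene Rtn4r (829) and Irak1 (330). A peak inside was present at 3, or 37.5%, near the 35.5% of all genes. Lingo1, a co-receptor of p75, had none at an end but 7 inside. Of 17 transcription factors and coactivators reported at Bdnf promoters, 12 had a peak inside, 70.6% against 35.5% of all genes. An end peak was present at 5, 29.4% and so near the 29.2% of all genes. The strongest of these end peaks were at Usf2 (1273), Crem (949) and Rest (136), the gene of a repressor of neuronal genes. Creb1, the gene of a CREB protein, had an end peak of 95. Whether that protein binds the match named above in Bdnf promoter 3 was not measured. Npas4 and Crtc1 had none at an end, and Crtc1 had 4 inside.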

How the data were processed

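CTCF was profiled in 2 immunoprecipitations and 2 inputs. The submitters' processing notes name MACS2, BWA, SAMtools, Trimmomatic and FastQC, and as builds GRCm38.p6 and mm10, with no versions or roles (peak threshold and input use: not given in the sources used here). Deposited was a list of 20 columns, in the layout of the IDR program. Its −log10 p values per replicate and their sum are the authors' and depend on library depth, which is unknown; the deposited −log10 IDR is a score capped at 5. The sum was checked to within 0.001 in all 33815 rows on chromosomes. Replicate columns carry no sample name. The joint summit is the deposited start plus the summit offset, written 1-based; in 85.1% of rows it lay within 1 bp of the midpoint of the replicate summits.

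Gene bounds came from RefSeq (GRCm38.p6); 348 genes with scaffold coordinates were left out, which left 49595. Members, lists and windows were chosen with earlier results of these data known; the TCACGTCA search, the span of 3 summits, the combined count of inside and flank peaks and the replicate summits were chosen after values were seen. Named genes were the 7 members, their nearest coding neighbours and those at their peaks, the 3 strongest end peaks per list and the 5 genes most like Bdnf; further list members were named to fill counts, and not every list member is reported here by name. No test was run. The alternatives were any base of the peak, an IDR of 0.01, peaks above the median strength or above either column's median, end windows of 500 bp and 5 kb, flanks of 50 and 200 kb, a longer motif, and each replicate's own summit. Counting was tested on simulated peaks. Python 3.11.15, numpy 2.4.6, pandas 2.3.3 and matplotlib 3.10.9 were used.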

Additional observations from a re-analysis of the deposited data

How the results depend on the processing

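Of 46 alternative values, 31 stayed within 1.5 times of the reported count and 15 did not. The number of members with an end peak, 1, became 5 by any base of the peak (Ntf3, Ntrk2, Ntrk3, Ngfr and Sort1), 6 with windows of 5 kb (all but Ntf5) and 2 by the second column's summits (Ntrk2 and Ntrk3). Peaks in Bdnf fell from 4 to 1 above the median joint strength, to 2 above the first column's median and to 1 above the second column's, and were 3 at an IDR of 0.01, without peak 2. All peaks of the members numbered 25, 34 and 27 above the joint, first and second medians, and 39 and 98 with flanks of 50 and 200 kb, against 61. Pathway genes with an end peak numbered 12 above the joint median, 12 above the second column's and 45 with windows of 5 kb, against 24. The longer motif, which contains the core and so cannot match more often, was in 0 promoters, against 4. Peaks above a median are fewer by construction. Members with a peak inside stayed at 5 or 4 throughout, and Ntf3 was the one lost. No paired analysis was possible because the list holds 1 condition, and neither replicate could be left out of a joint list. Library depth is unknown.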
